A study of Mus musculus with 59 samples.

Results

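The 36 genes described here encode enzymes of the citrate cycle, of its links to pyruvate and amino acids, of the conversion of citrate and acetate to acetyl-CoA, and of fatty acid synthesis, elongation and desaturation. They were taken by gene symbol from the 57180 gene rows of one table of raw read counts, and all 36 were measured and passed the filter on low counts in both tissues. Poly(A) RNA of cortex and hippocampus came from 30 male mice, 29 of them with both tissues, which gave 59 libraries of 21443017 to 32120906 counts. The mice were labelled wild type (Mrpl40 +/+,Slc25a1 +/+), Slc25a1 heterozygous (Mrpl40 +/+,Slc25a1 -/+), Mrpl40 heterozygous (Mrpl40 -/+,Slc25a1 +/+) or double heterozygous (Mrpl40 -/+,Slc25a1 -/+), with 9, 7, 7 and 7 cortex libraries and 8, 7, 7 and 7 hippocampus libraries. Each replicate was a separate animal; the labels used here give no strain, age or origin of the alleles.

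In the mitochondrial matrix, citrate synthase joins acetyl-CoA to oxaloacetate, and the cycle oxidises the citrate back to oxaloacetate while it loads electron carriers for respiration. Citrate that leaves the matrix through the carrier encoded by Slc25a1 is cleaved in the cytosol to acetyl-CoA, the building block of fatty acids and sterols, and to oxaloacetate. In brain the same enzymes feed glutamate and aspartate pools, and myelinating oligodendrocytes need much fatty acid. The product of Mrpl40 is a component of the mitochondrial ribosome.

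The targeted genes were examined first. Slc25a1 in wild-type cortex ran from 12.1 to 26.3 CPM (read counts over a common library size, scaled by edgeR's TMM method; median 24.0), and in Slc25a1 heterozygous cortex from 11.1 to 24.3 (median 12.6). In double heterozygous cortex it ran from 10.8 to 21.9 CPM (median 11.6), and in Mrpl40 heterozygous cortex from 21.8 to 24.7 (median 22.4). The groups overlap because Slc25a1 went against the label in 6 animals, in both of their tissues (12 libraries). Wild-type replicates 6 and 7 were at the heterozygous level, and Slc25a1 heterozygous replicates 3 and 4 and double heterozygous replicates 5 and 6 were at the wild-type level. Every genotype below is therefore a genotype as labelled, and results are also given without these animals where that matters. Mrpl40 was not lower in the libraries labelled heterozygous: its cortex medians were 17.2 CPM in wild type, 17.9 in Slc25a1 heterozygous, 17.5 in Mrpl40 heterozygous and 17.6 in double heterozygous mice. The tissue labels held, since the summed CPM of 7 hippocampal neuron markers was 502 to 1110 in hippocampus and 176 to 333 in cortex. In hippocampus, Slc25a1 heterozygous replicate 3 stood apart by cerebellar and thalamic markers (4.90 times the tissue median) and double heterozygous replicate 6 by choroid plexus markers (3.03 times).

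Levels were first compared between the genes in wild-type mice, as CPM per kilobase of exon (RPKM). Mdh1, the cytosolic malate dehydrogenase of the malate-aspartate shuttle, was the highest in cortex, with 239 ± 13.6 RPKM (SD, n = 9). Scd2, which puts a double bond into saturated fatty acids, followed with 222 ± 8.61 RPKM, and the ranges of Mdh1 and Scd2 overlapped. Got1, the cytosolic aspartate aminotransferase of the same shuttle, came next with 140 ± 8.82 RPKM and did not overlap with either neighbour in the order. The mitochondrial partner enzymes were lower, with 66.1 ± 2.90 RPKM for Mdh2 and 39.0 ± 1.91 for Got2. Cs, the citrate synthase, was at 46.7 ± 1.07 RPKM in cortex and 46.1 ± 1.06 (n = 8) in hippocampus.

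At the low end, Acacb, the acetyl-CoA carboxylase at the mitochondrial surface, was at 0.49 ± 0.0753 RPKM in cortex, and the cytosolic carboxylase Acaca was at 3.29 ± 0.155. Me2, a mitochondrial malic enzyme, was at 1.81 ± 0.124 RPKM, below the cytosolic Me1 at 11.4 ± 0.518 and the mitochondrial Me3 at 3.61 ± 0.346. Of the subunits of the NAD-dependent isocitrate dehydrogenase, Idh3b was at 62.9 RPKM, Idh3g at 45.4 and Idh3a at 41.3. The ranges of Idh3g and Idh3a overlapped. The succinyl-CoA ligase subunits were farther apart. Sucla2, of the ADP-forming enzyme, was at 37.4 RPKM, the shared subunit Suclg1 at 16.5 and Suclg2, of the GDP-forming enzyme, at 3.79. Of the 35 pairs of neighbours in the cortex order, 23 had overlapping ranges, so most single steps in the order were within the spread between animals.

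**Figure D1:**
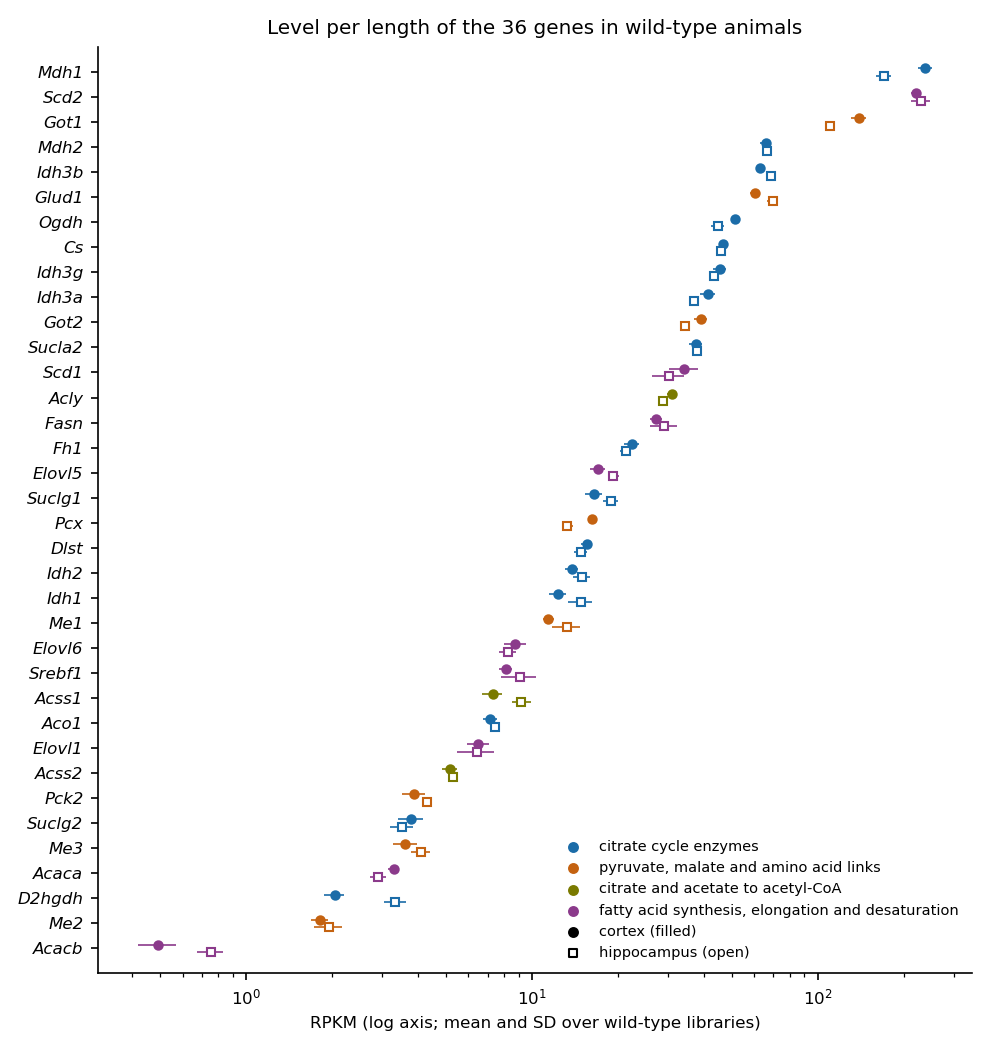
RPKM of the 36 genes in wild-type cortex (n = 9) and hippocampus (n = 8) on a log axis; points are means and bars are SDs. Levels run from 0.49 (Acacb) to 239 RPKM (Mdh1) in cortex, and the tissues lie close together for most genes.

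Hippocampus was then compared with cortex within wild-type animals, with the animal as a block in edgeR's quasi-likelihood test. Of the 36 genes, 19 passed an adjusted p of 0.05, 12 higher and 7 lower in hippocampus, against 60.6% of all 21351 genes tested (30.4% higher and 30.1% lower). The median absolute log2 difference of the 36 genes was 0.139 against 0.272 over all genes. The genes with the largest differences were the cytosolic shuttle enzymes Mdh1 and Got1 and the anaplerotic enzyme Pcx, lower in hippocampus, and D2hgdh, Acacb and Acss1, higher in hippocampus. In tissue RNA, a lower level can come from fewer cells of a type or from less RNA per cell, and these cannot be told apart.

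Among the 16 genes grouped as citrate cycle enzymes, 5 were higher and 3 lower in hippocampus. This group also holds the cytosolic enzymes Mdh1, Idh1 and Aco1, and D2hgdh, which are not steps of the cycle in the matrix. Of the genes called, those of the matrix cycle enzymes were Idh2, Idh3b and Suclg1 (higher) and Ogdh and Idh3a (lower). Mdh1 was at 567 to 662 CPM in wild-type cortex (median 607) and at 409.9 to 489 CPM in hippocampus (median 432). The tissues did not overlap, and all 29 animals with both tissues had less Mdh1 in hippocampus. The log2 difference in wild type was -0.47 (SE 0.0448, adjusted p = 2.99e-11), which is 0.72 times the cortex level. Its mitochondrial counterpart Mdh2 differed by 0.03 on the log2 scale (adjusted p = 0.478). D2hgdh, which oxidises D-2-hydroxyglutarate to 2-oxoglutarate, ran from 7.67 to 9.69 CPM in cortex (median 8.85) and from 11.5 to 16.0 in hippocampus (median 14.5). All hippocampus values lay above all cortex values, and D2hgdh was higher in hippocampus in 29 of 29 animals. This was the largest rise among the 36 genes in wild type, with a log2 difference of 0.71 (SE 0.0705, adjusted p = 8.65e-11), or 1.64 times the cortex level.

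Ogdh, the first component of the 2-oxoglutarate dehydrogenase complex, was at 265 to 287 CPM in cortex and 224 to 264 in hippocampus, and was lower in 28 of 29 animals (log2 difference -0.20, SE 0.0365, adjusted p = 1.96e-05). Dlst, the second component of that complex, differed by -0.06 and did not pass (adjusted p = 0.064). The isocitrate dehydrogenases moved in different directions. Idh3a, the catalytic NAD-dependent subunit, was at 196 to 229 CPM in cortex and 177 to 200.1 in hippocampus (log2 difference -0.14, adjusted p = 0.0163, lower in 8 of 8 wild-type animals). Idh3b, a regulatory subunit of the same enzyme, was at 202 to 226 CPM in cortex and 222 to 249 in hippocampus (0.14, adjusted p = 1.7e-05, higher in 8 of 8). Idh3g, the remaining subunit, did not pass (-0.06, adjusted p = 0.073). The NADP-dependent enzymes were both higher in hippocampus, cytosolic Idh1 by 0.25 (adjusted p = 0.000849, 7 of 8 animals) and mitochondrial Idh2 by 0.12 (adjusted p = 0.0428, 7 of 8 animals).

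Suclg1 was at 68.3 to 86.7 CPM in cortex and 79.4 to 94.7 in hippocampus, a log2 difference of 0.20 (SE 0.0369, adjusted p = 1.33e-05) with overlapping ranges and the same direction in 8 of 8 animals. Sucla2 and Suclg2, which pair with it, did not pass, and neither did fumarase (Fh1), cytosolic aconitase (Aco1) and Cs. For Cs the difference was -0.01 with a 95% interval of -0.07 to 0.04, a narrow interval around 0. Idh2 and Idh3a no longer passed without the 6 animals whose Slc25a1 level went against the label: Idh2 then differed by 0.09 (adjusted p = 0.203) and Idh3a by -0.12 (adjusted p = 0.093).

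**Figure D2:**
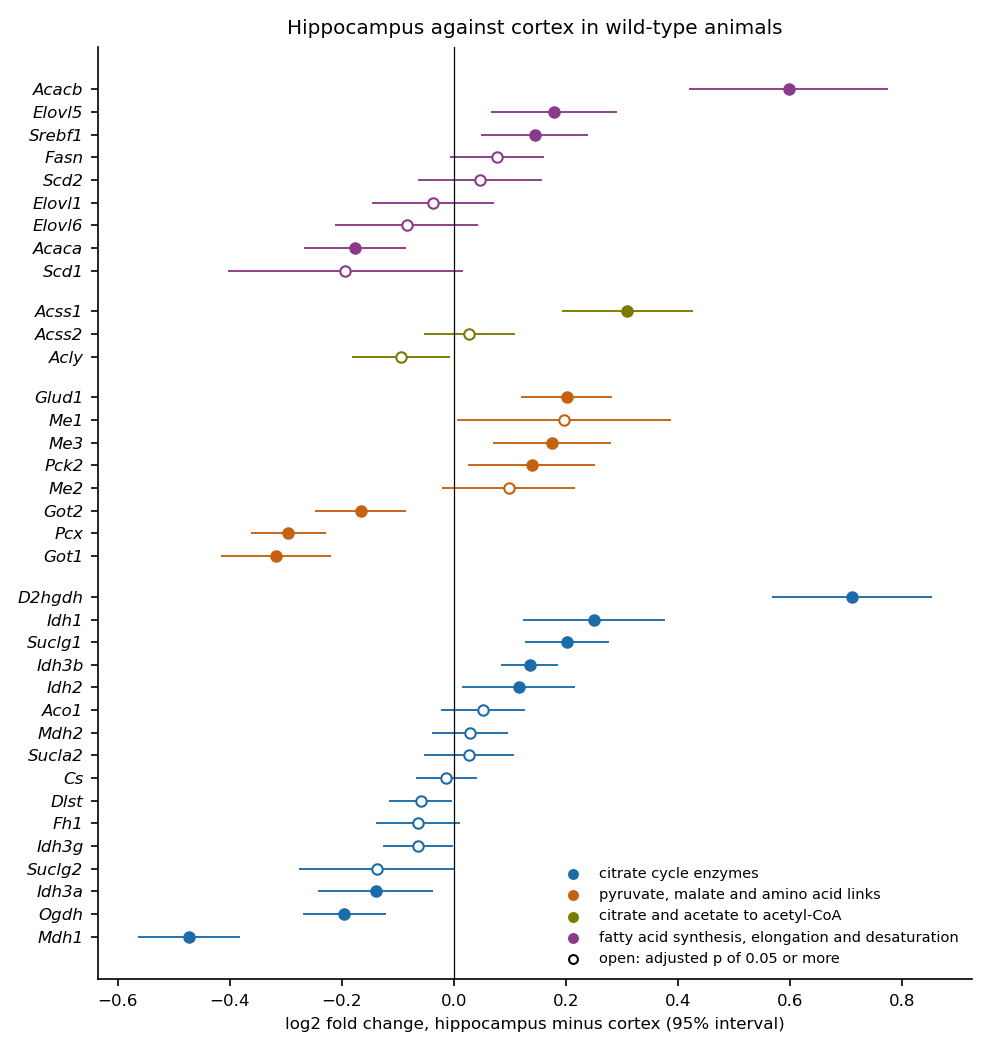
Log2 difference of hippocampus against cortex in wild-type mice for each gene (edgeR fit with the animal as a block); bars are 95% intervals and filled points passed an adjusted p of 0.05. D2hgdh (0.71) and Acacb (0.60) lie at the upper end and Mdh1 (-0.47) at the lower end.

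Of the 8 genes that link the cycle to pyruvate, malate and amino acids, 3 were higher and 3 lower in hippocampus. Got1 was at 321 to 393 CPM in wild-type cortex (median 356) and 267 to 293 in hippocampus (median 281). The ranges were separate and the direction held in 29 of 29 animals, with a log2 difference of -0.32 (SE 0.0483, adjusted p = 7.24e-07). Mitochondrial Got2 fell by 0.17 on the log2 scale (SE 0.0398, adjusted p = 0.000482), from 174 to 201 CPM in cortex to 157 to 175 CPM in hippocampus. Pcx, pyruvate carboxylase, makes oxaloacetate from pyruvate. It was at 74.5 to 82.9 CPM in cortex and 59.8 to 67.8 in hippocampus, without overlap, and lower in 29 of 29 animals (-0.30, SE 0.033, adjusted p = 1.35e-09). Glud1, glutamate dehydrogenase, was higher in hippocampus, at 268 to 307 CPM against 244 to 274 CPM in cortex (0.20, SE 0.0399, adjusted p = 4.55e-05, 28 of 29 animals). Me3 was higher by 0.18 (adjusted p = 0.00413) and Pck2, the mitochondrial phosphoenolpyruvate carboxykinase, by 0.14 (adjusted p = 0.0319), both with overlapping ranges. Pck2 no longer passed without the animals against the label (0.10, adjusted p = 0.195). Me1 had a value of 0.20 and did not pass (adjusted p = 0.0698).

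Acss1, which activates acetate inside mitochondria, ran from 25.9 to 32.7 CPM in cortex (median 30.8) and from 34.4 to 42.5 in hippocampus (median 36.9). These ranges did not overlap, and the log2 difference was 0.31 (SE 0.0575, adjusted p = 1.82e-05, 29 of 29 animals). The cytosolic and nuclear enzyme Acss2 did not pass. Acly, which cleaves exported citrate, was at -0.09 and also missed the threshold (adjusted p = 0.0566), although hippocampus was lower in 8 of 8 wild-type animals.

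In fatty acid synthesis, the carboxylases that make malonyl-CoA went in opposite directions. Acacb was at 3.78 to 5.98 CPM in cortex (median 4.48) and at 6.23 to 8.23 in hippocampus (median 7.11), a log2 difference of 0.60 (SE 0.0875, adjusted p = 3.35e-07) with no overlap and the same direction in 29 of 29 animals. Acaca was at 51.9 to 60.5 CPM in cortex and 45.6 to 53.2 in hippocampus (-0.18, SE 0.0448, adjusted p = 0.000979), with a small overlap and 27 of 29 animals lower. Fatty acid synthase (Fasn) did not pass (0.08, adjusted p = 0.106). Elovl5, an elongase of polyunsaturated fatty acids, rose by 0.18 (adjusted p = 0.00553), and Srebf1, a transcription factor for lipid synthesis genes, by 0.14 (adjusted p = 0.00838). The desaturases did not pass: Scd1 had a value of -0.19 (adjusted p = 0.104) and Scd2 one of 0.05 (adjusted p = 0.468). Scd1 and Scd2 transcripts are 86.8% identical over 1261 aligned bases, with a longest identical run of 147 bases, so some reads could have been assigned to the other gene or dropped.

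**Figure D3:**
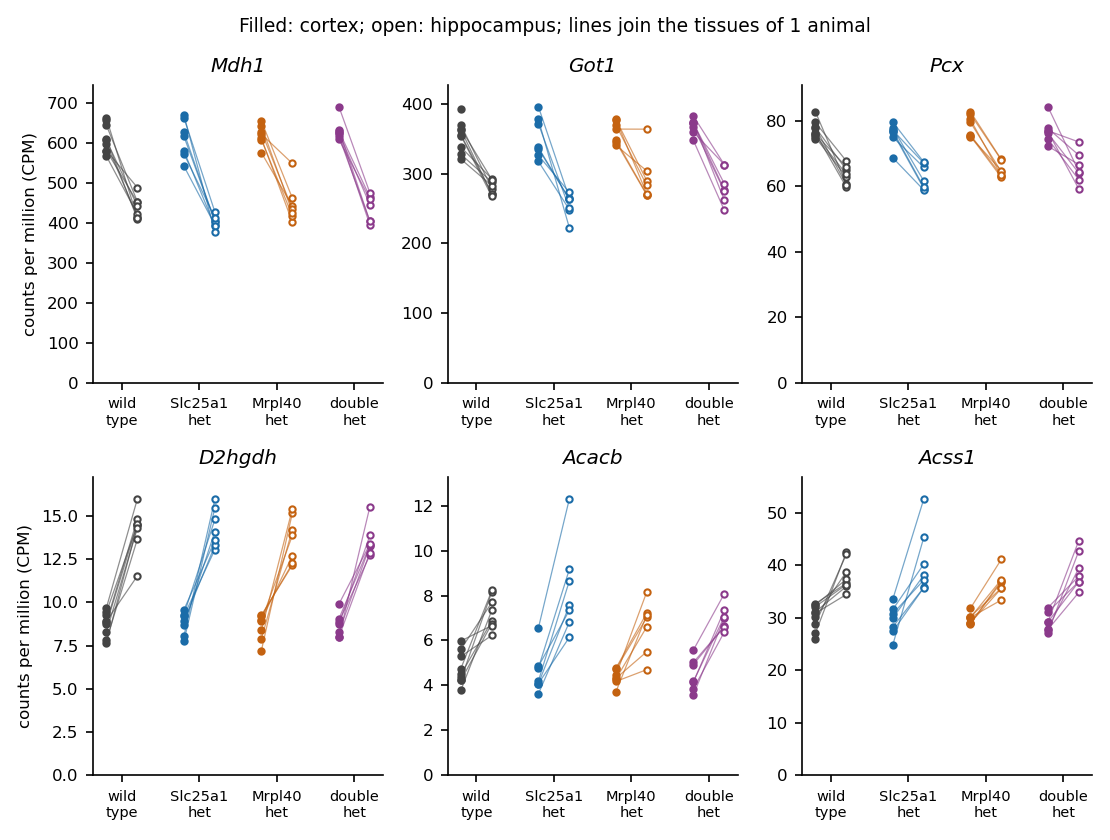
CPM of Mdh1, Got1, Pcx, D2hgdh, Acacb and Acss1 in every library, with a line joining the cortex and hippocampus libraries of an animal. All lines fall for Mdh1, Got1 and Pcx and rise for D2hgdh, Acacb and Acss1, in 29 of 29 animals.

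Averaged over the 4 genotypes, 30 of 36 genes passed (16 higher and 14 lower in hippocampus), where 77.5% of all genes did (39.8% higher and 37.7% lower). Values were close to those in wild type, with -0.52 for Mdh1, -0.37 for Got1, 0.68 for D2hgdh, 0.68 for Acacb and 0.37 for Acss1. The genes that did not pass were Acss2, Sucla2, Cs, Mdh2, Scd2 and Elovl1. Against a fold of at least 1.2, 3 of 36 genes passed in wild type (Acacb, D2hgdh and Mdh1) and 5 over the genotypes, Acss1 and Got1 being added. Of all 21351 genes, 7064 passed this test in wild type and 8631 over the genotypes. Glial and neuronal markers were read beside these values. Of 10 astrocyte markers, all measured, 5 were called higher and 1 lower in wild-type hippocampus, with log2 differences from -0.51 to 2.81 and a median of 0.17. Their summed CPM was 4686 to 5391 in wild-type cortex and 5379 to 6664 in hippocampus. Of 12 oligodendrocyte markers, all measured, 12 had positive values (0.12 to 0.40) but none passed in wild type by edgeR (smallest adjusted p = 0.0658, 2 at an unadjusted p under 0.05). Over the genotypes 6 of the 12 passed, all higher in hippocampus. Their summed CPM overlapped, at 1853 to 2956 in cortex and 2162 to 5199 in hippocampus. Neuron markers differed more. All 6 inhibitory neuron markers had negative values in wild type (median -1.03), and 5 were called lower in hippocampus. Of 6 excitatory neuron markers, 3 were called higher and 2 lower (-3.57 to 1.30). The part of these glial and neuronal markers in the tissue differences was not tested.

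Other genes of the pathway were read from 7 lists, to be set against the 30.4% of all genes called higher and the 30.1% called lower. The largest wild-type tissue differences among them were in the regulators of lipid synthesis, where 6 of 14 genes were higher and 6 lower in hippocampus, with Thrsp at 1.73 and Pparg at -2.09 on the log2 scale. Among 8 carriers of citrate, dicarboxylates and aspartate, 1 was higher, the glutamate carrier Slc25a22 (0.31), and 2 were lower, Slc13a5, a citrate carrier of the plasma membrane (-1.36), and Slc25a18 (-0.51). In the pyruvate dehydrogenase group 5 of 13 were higher, among them the pyruvate carrier subunit Mpc2 (0.35), and 3 were lower, among them the phosphatase Pdp1 (-1.53). Of 10 other citrate cycle genes, 3 were higher (Adhfe1 at 0.43) and 2 lower (Ogdhl at -0.51). Among 15 other elongation and desaturation genes, 5 were higher (Fads2 at 0.39) and 6 lower (Scd3 at -1.26). The acyl-CoA synthetases, thioesterases and carnitine transferases had 4 higher (Acot2 at 0.81) and 4 lower (Acsl5 at -0.56) of 16, and mitochondrial fatty acid synthesis had 2 higher (Cbr4 at 0.33) and 2 lower (Lias at -0.13) of 9.

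The genotypes were compared with wild type within each tissue. None of the 36 genes passed an adjusted p of 0.05 in any genotype comparison by edgeR, and none did by DESeq2. The share of all genes that passed was also small: in cortex 0% of 20394 for Slc25a1 heterozygous, 0.0294% for Mrpl40 heterozygous (0.0245% higher, 0.0049% lower) and 0.0686% for double heterozygous (0.0196% higher, 0.049% lower), and in hippocampus 0%, 0.00496% and 0.00992% of 20162. Comparisons with wild type share the wild-type libraries, so their values are given side by side and not as independent evidence.

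In cortex, 0, 3 and 3 of the 36 genes had an unadjusted p under 0.05 in the Slc25a1 heterozygous, Mrpl40 heterozygous and double heterozygous comparisons by edgeR (0, 3 and 2 by DESeq2). Over all genes the shares were 3.17%, 6.94% and 10.9%. Idh2 was at 33.3 to 38.8 CPM in wild type (median 35.3), 30.1 to 33.9 in Mrpl40 heterozygous mice (median 32.9) and 29.2 to 36.7 in double heterozygous mice (median 33.5). The ranges overlapped, and the log2 differences were -0.13 (SE 0.0499, adjusted p = 0.606) and -0.11 (SE 0.0501, adjusted p = 0.427). The double heterozygous value became -0.06 without the animals against the label. Acly was at 158 to 171 CPM in wild type, 160.5 to 183 in Mrpl40 heterozygous and 165 to 189 in double heterozygous cortex. Its differences were 0.07 (adjusted p = 0.705) and 0.07 (adjusted p = 0.417), and the second became 0.05 without those animals. Fasn in Mrpl40 heterozygous cortex (0.08, adjusted p = 0.715) and Sucla2 in double heterozygous cortex (0.08, adjusted p = 0.41) were the other genes with an unadjusted p under 0.05. In Mrpl40 heterozygous and double heterozygous cortex all 10 astrocyte markers had negative values (medians -0.05 and -0.06). All 12 oligodendrocyte markers had positive ones (medians 0.30 and 0.18), and no marker of these 2 lists passed adjustment. Of 10 microglia markers, 10 and 9 had negative values (medians -0.08 and -0.12). Of these, 1 passed in double heterozygous cortex by edgeR (adjusted p = 0.0262) and 0 in Mrpl40 heterozygous cortex. The part of these markers in these values was not tested. The median absolute log2 difference of the 36 genes was 0.0267, 0.0346 and 0.0402 in the 3 comparisons, against 0.0467, 0.0576 and 0.0666 over all genes. The 95% intervals of the 36 genes in cortex reached from -0.35 to 0.28.

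In hippocampus, 6, 4 and 0 of the 36 genes had an unadjusted p under 0.05 by edgeR (7, 5 and 0 by DESeq2), where 7.77%, 8.19% and 5.28% of all genes did. All 6 in the Slc25a1 heterozygous comparison had negative values: Suclg1, Got2, Acss2, Got1, Idh3a and Mdh1. Got2 was at 157 to 175 CPM in wild type (median 166) and 131 to 161 in Slc25a1 heterozygous mice (median 156). Idh3a was at 177.0 to 200.1 CPM in wild type (median 188) and 151 to 176.5 in Slc25a1 heterozygous mice (median 174). The ranges of Got2 overlapped, while those of Idh3a did not. The log2 differences were -0.12 for Got2 (SE 0.0477, adjusted p = 0.57) and -0.14 for Idh3a (SE 0.0588, adjusted p = 0.603). Slc25a1 heterozygous replicate 7 held the lowest value of both genes. Without the animals against the label the values were -0.16 and -0.17, and still no gene passed. All 10 astrocyte markers had positive values in this comparison (median 0.09). Of these, 3 had an unadjusted p under 0.05, and no marker passed after adjustment. Their summed CPM was 5379 to 6664 in wild-type and 5580 to 7647 in Slc25a1 heterozygous hippocampus, and their part in these values was not tested.

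In Mrpl40 heterozygous hippocampus the genes with an unadjusted p under 0.05 were Suclg2 (-0.20, SE 0.0680, adjusted p = 0.587), Me3 (0.11), Fasn (0.12) and Got2 (0.10). Suclg2 was at 13.3 to 18.0 CPM in wild type (median 16.5) and 12.8 to 15.5 in Mrpl40 heterozygous mice (median 14.1), with overlap. All 10 astrocyte markers had negative values here (median -0.09, 1 at an unadjusted p under 0.05), with a summed CPM of 4731 to 6252, and their part was not tested. The Fasn value became 0.08 without the animals against the label, and that of Got2 became 0.06 without Mrpl40 heterozygous replicate 5. In double heterozygous hippocampus the gene with the lowest p was Elovl6, an elongase of saturated fatty acids (0.10, adjusted p = 0.989). The 95% intervals of the 36 genes in hippocampus reached from -0.40 to 0.44.

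**Figure D4:**
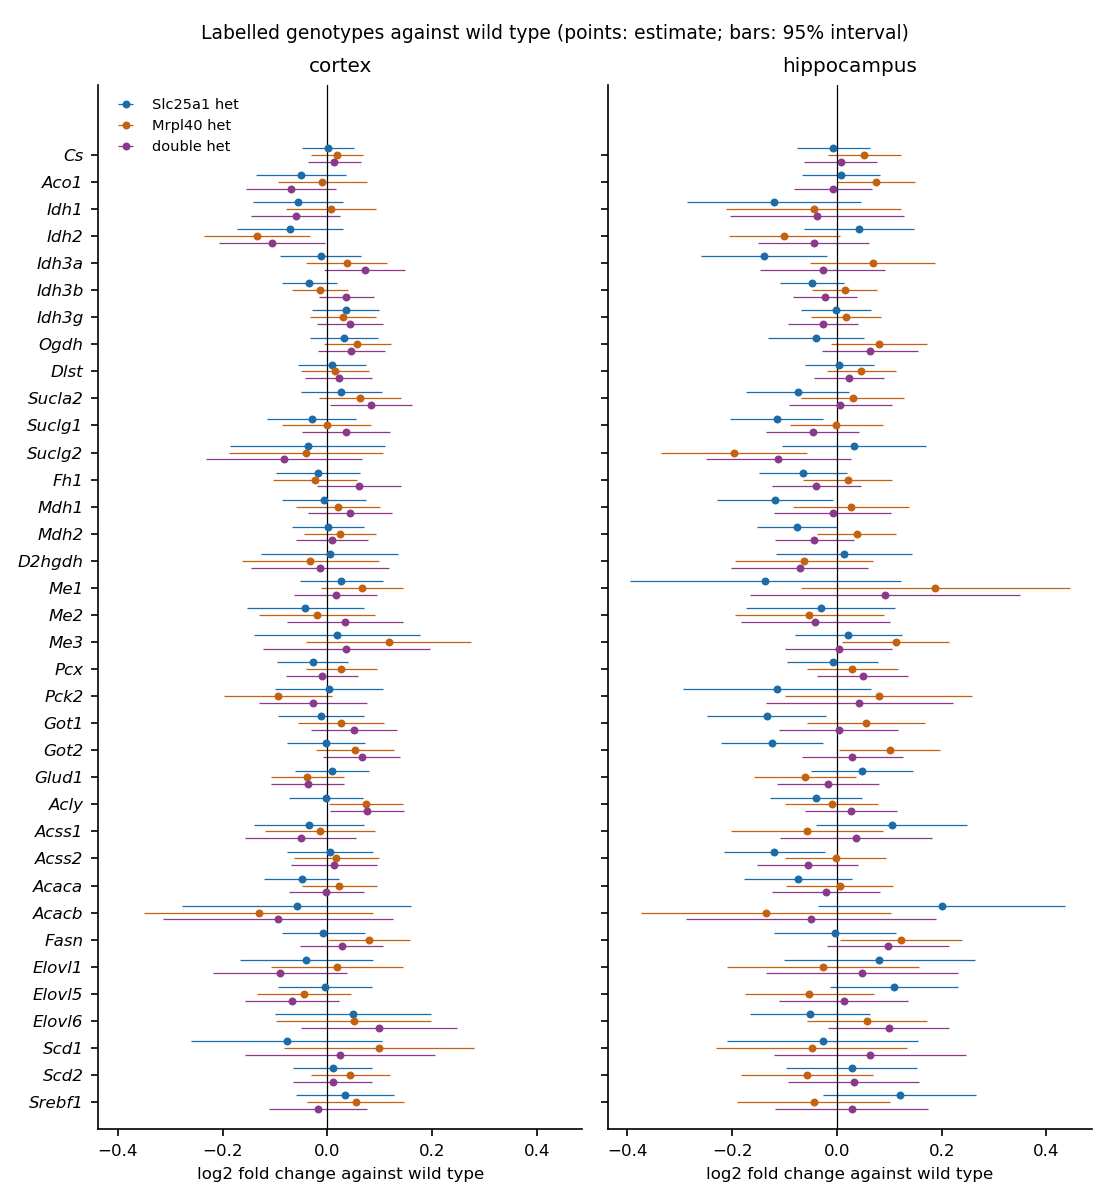
Log2 difference of each genotype against wild type for the 36 genes in cortex and in hippocampus; points are edgeR estimates and bars are 95% intervals. No gene passed an adjusted p of 0.05, and intervals stay between -0.40 and 0.44.

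The double heterozygous mice were also compared with each single heterozygous group. Against Slc25a1 heterozygous mice, 3 of 36 genes in cortex and 6 of 36 in hippocampus had an unadjusted p under 0.05 by edgeR (3 and 5 by DESeq2), where 9.92% and 9.04% of all genes did. None passed after adjustment (0.0588% of all genes in cortex did, 0.0245% higher and 0.0343% lower, and 0% in hippocampus). In cortex Idh3b was at 202 to 220 CPM in Slc25a1 heterozygous mice (median 208) and at 217 to 226 in double heterozygous mice (median 222). The log2 difference was 0.07 (SE 0.0277, adjusted p = 0.363) with overlapping ranges. In hippocampus Got2 had the lowest p, with 131 to 161 CPM in Slc25a1 heterozygous and 151 to 184 in double heterozygous mice (0.15, SE 0.0492, adjusted p = 0.422). Elovl6 (0.15), Got1 (0.14) and Acacb (-0.25) were among the others. Without the libraries with markers of neighbouring tissue, 11 of 36 genes had an unadjusted p under 0.05 in this hippocampal comparison by edgeR. Of all 20208 genes in that fit, 2162 did, and none passed after adjustment.

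Against Mrpl40 heterozygous mice, 0 of 36 genes in cortex and 3 in hippocampus had an unadjusted p under 0.05 by edgeR (1 and 3 by DESeq2; 6.94% and 4.68% of all genes), and again none passed (0.0049% and 0% of all genes). The hippocampal ones were Aco1 (-0.08, adjusted p = 0.958), Me3 (-0.11) and Mdh2 (-0.08). The interaction, which asks whether the double heterozygous value differs from the sum of the single ones, had 1 gene in cortex and 0 in hippocampus at an unadjusted p under 0.05 by either tool (5.35% and 3.39% of all genes). None passed (0% of all genes in both). The cortex gene was Idh3b (0.08, SE 0.0380, adjusted p = 0.895). Whether a genotype difference itself differed between tissues was tested in the fit over both tissues. There 3, 1 and 2 genes had an unadjusted p under 0.05 for Slc25a1 heterozygous, Mrpl40 heterozygous and double heterozygous mice by edgeR (4, 1 and 1 by DESeq2; 5.99%, 5.83% and 5.03% of all genes), and none passed (0%, 0% and 0.0234% of all genes). Got2 was the lowest for Slc25a1 heterozygous mice (-0.14, SE 0.0583, adjusted p = 0.816). Pck2 was the one for Mrpl40 heterozygous mice (0.18, adjusted p = 0.828), and it became 0.10 without hippocampal Mrpl40 heterozygous replicate 5.

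Animals of one genotype differed among themselves, and more so for some of these genes. The pooled SD of log2 CPM within genotypes was largest in cortex for Acacb (0.216), Scd1 (0.179) and Me3 (0.157), and smallest for Cs (0.0346) and Idh3b (0.0403). In hippocampus it was largest for Me1 (0.246) and Acacb (0.228) and smallest for Idh3b (0.044) and Cs (0.0541). The median over the 12011 genes in the same range of level was 0.0977 in cortex and 0.112 in hippocampus. Citrate synthase and the Idh3b subunit were thus among the steadiest of the 36 genes in both tissues.

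These deviations were set against the mean log2 CPM of the astrocyte and of the oligodendrocyte markers, as a description over 30 cortex and 29 hippocampus libraries. Each library's value was taken from its genotype mean, and p came from 100000 permutations within genotype, adjusted over 144 relations. In all, 31 relations passed. Without the 2 libraries farthest from the median marker level 20 relations passed, 18 of them among the 31. The share of all genes past this test is not given here, so these counts cannot be set against those of other genes. All genes of a library share its total, so a rise of one cell type's genes lowers the CPM of others.

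In cortex, Suclg2 rose with the astrocyte markers (r = 0.82, rho = 0.81, 0.79 without the 2 farthest libraries, permutation adjusted p = 0.00036), as did Glud1 (r = 0.79, rho = 0.81, 0.79 without them, permutation adjusted p = 0.000617). Got1 fell with them (r = -0.72, rho = -0.74, -0.66 without the 2 farthest), and so did Idh3a (r = -0.69, rho = -0.69, -0.63). For scale, 0.0234% of all genes had an r with the astrocyte markers at least as high as Suclg2. Other relations past the threshold were less unusual: 2.71% of all genes had an r at least as high as Elovl5 (r = 0.51). In hippocampus the astrocyte markers went with Elovl5 (r = 0.84, rho = 0.87, 0.85 without the 2 farthest), Glud1 (r = 0.83, rho = 0.84, 0.95), Suclg2 (r = 0.77, rho = 0.73, 0.70) and Acss1 (r = 0.75, rho = 0.67, 0.76). Suclg2 and Glud1 thus had a positive relation with these markers in both tissues.

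With the oligodendrocyte markers, Me3 had the highest r in cortex (r = 0.84, rho = 0.85, 0.82 without the 2 farthest, permutation adjusted p = 0.00036), followed by Scd2 (r = 0.70, rho = 0.72, 0.64). In cortex, 0.333% of all genes had an r with these markers at least as high as Me3, and 1.10% one at least as high as Scd2. In hippocampus Scd2 was again positive (r = 0.70, rho = 0.63, 0.62), while Me3 was negative (r = -0.60, rho = -0.49). The hippocampal relation of Me3 rests on the 2 farthest libraries for its call, since r was -0.39 without them and no longer passed. Hippocampal Scd2 still passed without those libraries (r = 0.62, permutation adjusted p = 0.0157). The remaining hippocampal relations with oligodendrocyte markers past the threshold missed it without them. Their r went from 0.63 to 0.46 for Scd1, from 0.58 to 0.44 for Elovl6, from 0.54 to 0.46 for Mdh1, from 0.45 to 0.35 for Elovl5 and from -0.52 to -0.30 for D2hgdh.

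**Figure D5:**
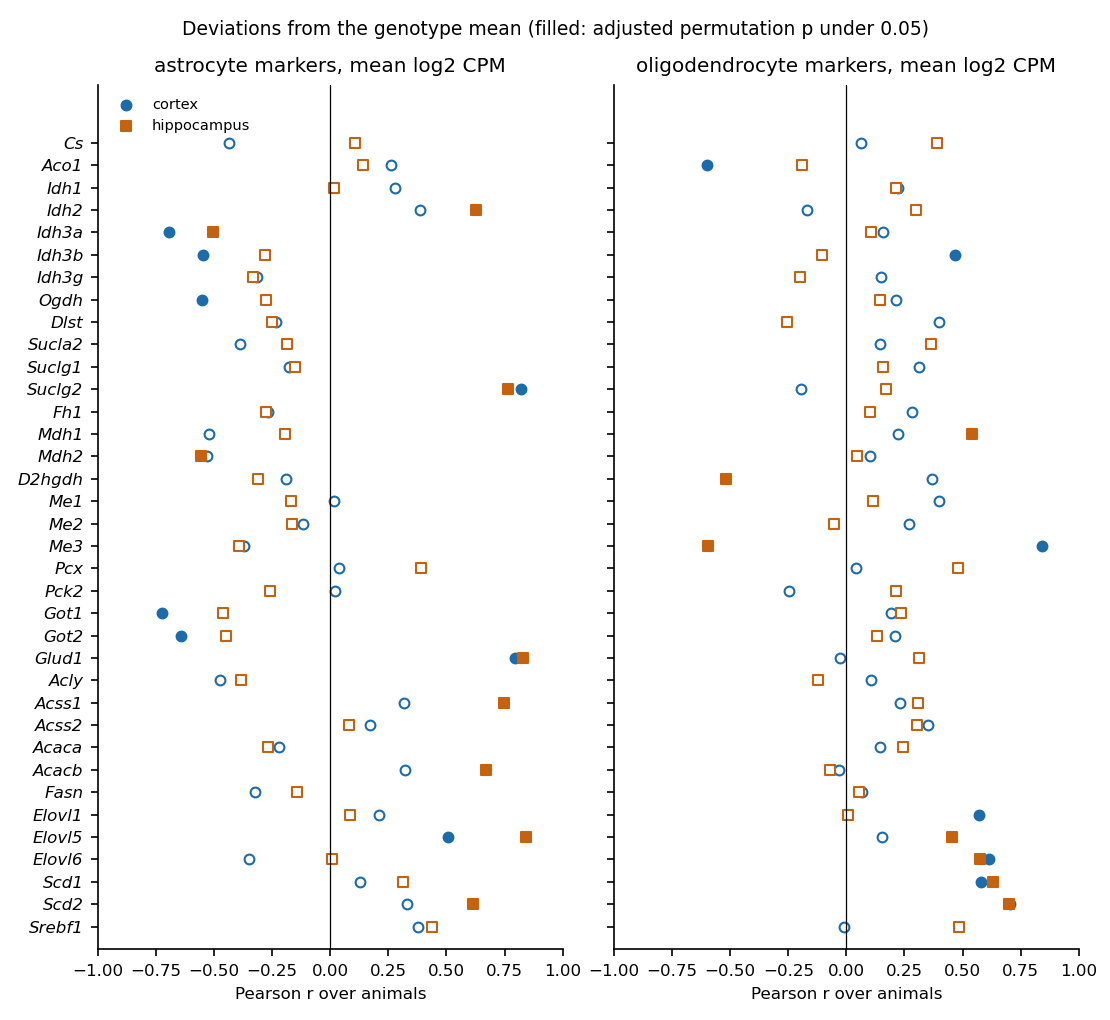
Pearson r of each gene with the mean log2 CPM of astrocyte and of oligodendrocyte markers over animals, as deviations from the genotype mean, in cortex (30 libraries) and hippocampus (29 libraries). Suclg2 and Glud1 lie at 0.77 or above for astrocyte markers in both tissues, and Me3 lies at 0.84 for oligodendrocyte markers in cortex and at -0.60 in hippocampus.

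The genes were also compared with each other, an analysis added after the spread was seen, over 630 pairs in each tissue and with p adjusted over the 1260 relations. In cortex 74 pairs were positive and 19 negative at a permutation adjusted p of 0.05, and in hippocampus 124 and 15. An r of at least 0.5 was found in 12.2% of the pairs in cortex and 20.0% in hippocampus, against 2.77% and 4.61% of all pairs among the 12011 genes in the same range of level. An r of -0.5 or lower was found in 3.17% and 2.54%, against 2.11% and 3.51%. The range was not matched to the level of each gene. Over all genes tested, an r of at least 0.5 was found in 1.42% and 2.33% of pairs, so the share varies with the genes taken. The highest pair in cortex was Mdh1 and Mdh2, the cytosolic and mitochondrial malate dehydrogenases (r = 0.92, rho = 0.91, 0.89 without the 2 farthest libraries). Mdh2 ranked 1 of 21350 other genes in its r with Mdh1. Next were Scd1 and Scd2 (r = 0.86, rho = 0.88, 0.86), Idh3a and Got2 (r = 0.85, rho = 0.79, 0.79) and Sucla2 and Mdh1 (r = 0.85, rho = 0.84, 0.85). The lowest was Suclg2 and Got1 (r = -0.76, rho = -0.78, -0.76), and Got1 ranked last of the 21350 genes in its r with Suclg2. In hippocampus the highest were Idh3a and Got1 (r = 0.94, rho = 0.90, 0.88) and Idh3a and Got2 (r = 0.90, rho = 0.84, 0.85). Idh3b and Suclg1 followed with r = 0.86 (rho = 0.86, 0.83 without the 2 farthest), and Suclg1 ranked 1 of 21350 genes in its r with Idh3b. The negative hippocampal pairs were led by Fasn and Elovl1 (r = -0.67, rho = -0.65, -0.64).

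The promoters of the genes at both ends of this pattern, Mdh1 and Mdh2 as the closest pair in cortex and Got1 and Suclg2 as the most opposed one, are shown as the 250 bases before the annotated start (RefSeq, build GRCm38.p6). They lie at chr11:21571935-21572184 on the minus strand (Mdh1), chr5:135778399-135778648 on the plus strand (Mdh2), chr19:43524606-43524855 on the minus strand (Got1) and chr6:95718847-95719096 on the minus strand (Suclg2). GENCODE vM21 places the outer start of Mdh1 at 21572367 and that of Mdh2 at 135778480. By that annotation all of the Mdh1 stretch and most of the Mdh2 stretch lie inside the gene. Which start is used in these tissues was not tested. Capitals mark the CCAAT box (CCAAT, or ATTGG on the other strand) and the GC box (GGGCGG, or CCGCCC on the other strand).
Mdh1: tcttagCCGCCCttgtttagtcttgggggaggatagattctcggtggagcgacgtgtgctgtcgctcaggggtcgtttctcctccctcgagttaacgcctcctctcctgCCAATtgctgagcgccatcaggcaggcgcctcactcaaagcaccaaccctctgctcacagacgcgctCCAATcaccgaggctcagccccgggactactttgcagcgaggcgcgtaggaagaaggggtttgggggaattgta
Mdh2: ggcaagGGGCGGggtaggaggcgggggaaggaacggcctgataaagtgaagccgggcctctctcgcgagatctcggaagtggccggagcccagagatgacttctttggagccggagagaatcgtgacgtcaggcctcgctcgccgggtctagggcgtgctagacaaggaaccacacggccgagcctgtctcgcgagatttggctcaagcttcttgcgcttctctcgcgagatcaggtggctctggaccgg
Got1: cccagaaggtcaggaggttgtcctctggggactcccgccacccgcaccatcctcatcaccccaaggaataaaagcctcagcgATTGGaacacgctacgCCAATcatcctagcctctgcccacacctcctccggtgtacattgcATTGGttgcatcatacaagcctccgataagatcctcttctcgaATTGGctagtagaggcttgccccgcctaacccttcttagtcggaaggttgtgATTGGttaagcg
Suclg2: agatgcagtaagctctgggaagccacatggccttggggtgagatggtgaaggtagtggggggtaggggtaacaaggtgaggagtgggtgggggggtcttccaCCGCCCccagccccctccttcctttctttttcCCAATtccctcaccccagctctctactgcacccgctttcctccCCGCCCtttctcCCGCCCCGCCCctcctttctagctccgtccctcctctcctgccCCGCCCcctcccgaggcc

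The Got1 promoter held 5 CCAAT boxes and 0 GC boxes, and that of Suclg2 held 1 and 5. Mdh1 had 2 CCAAT boxes and 1 GC box, and Mdh2 had 0 and 1. Of the 36 genes, 32 had a promoter in the RefSeq table. A CCAAT box was in 17 of these 32, and in 34.5% of the 27025 promoters of all genes, and a GC box in 19 of 32 and 32.9%. The E-box CACGTG was in 2 of 32 (Elovl5 and Pcx) and 6.05%, and the NRF1 motif in 2 of 32 (Fasn and Sucla2) and 3.86%. The sterol regulatory element TCACNCCAC was in 1 of 32 (D2hgdh) and 1.04%, and the motif of estrogen-related receptors TCAAGGTCA in 0 of 32 and 0.366%. Both strands were searched, and a match is only a run of letters.

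Within hippocampus, the mix of subfields varied between libraries. Prox1, a marker of dentate granule cells, ran from 141 to 309 CPM (median 242). In relations chosen after seeing the data (252 in all), 15 of 36 genes fell with Prox1 and 0 rose, at a permutation adjusted p of 0.05. An r with Prox1 of -0.5 or lower was found for 38.9% of the 36 genes and for 11.0% of the genes in their range of level, which was not matched gene by gene. The other markers differed among themselves: 0 genes rose and 15 fell with Dsp, 0 and 17 with Lct, 1 and 13 with Calb1, 1 and 12 with Tdo2, 2 and 0 with Spink8 and 0 and 1 with Wfs1. The shares at an r of -0.5 or lower were 33.3% against 9.08% of genes in the range for Dsp and 25.0% against 8.96% for Lct. They were 36.1% against 9.57% for Calb1, 30.6% against 9.37% for Tdo2 and 2.78% against 3.90% for Wfs1. For Spink8 the shares at an r of at least 0.5 were 5.56% against 6.92%, so its 2 genes do not stand out. The lowest with Prox1 were Scd2 (r = -0.79, rho = -0.80, -0.76 without the 2 farthest libraries), Mdh1 (r = -0.77, rho = -0.66, -0.63) and Scd1 (r = -0.76, rho = -0.70, -0.67). Mrpl40 heterozygous replicate 5 had the lowest Prox1 (141 CPM) and the highest Spink8, another hippocampal neuron marker (21.7 CPM, median 5.18). The same library had the highest Mdh1 (549 CPM) and Got1 (364 CPM) of its group, and the part of the subfield mix in these values was not tested.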

How the data were processed

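Poly(A) RNA-seq libraries of cortex and hippocampus were analysed from the raw counts per gene that the authors deposited in one table; the submitters' processing notes name FastQC, HISAT2, featureCounts, DESeq2 and the build mm39 (GRCm39), with no roles, and no annotation is named there. Groups follow the genotype in the labels, and the animal number pairs the tissues. The 7074 rows without a symbol were not removed, so any that passed the filter on low counts entered library sizes and tests. Counts were tested with edgeR 4.0.16 (R 4.3.3, filterByExpr, TMM, quasi-likelihood F test, Benjamini-Hochberg adjustment over all genes tested, threshold 0.05), with all 4 genotypes in one fit per tissue and, for tissue comparisons, one fit over both with the animal as a block. That fit gets nothing on the tissue difference from the 1 wild-type animal with cortex only. Log2 CPM used a prior count of 2.

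RPKM used exon lengths of GENCODE vM21 (GRCm38), which held 97.1% of the genes tested. Correlations used deviations from the genotype mean (Python 3.11.15, scipy 1.17.1). Alternatives were DESeq2 1.42.0, its size factors, no filter, a minimum fold of 1.2, only the genotypes compared, other block terms and libraries left out. The fits and correlations were tested on simulated data with known changes. Simulated counts for the fits had the same dispersion for every gene and no differences between animals. The paired fit was therefore not tested in its real setting, and the rate of calls at small folds is not given here.

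The 36 genes, the pathway lists and the marker lists were chosen with earlier results of these data known. Full statistics were given to genes past the threshold and otherwise to those with the smallest p, up to 5 in a comparison; of each pathway list, the largest rises and falls were eligible to be named. Genotypes share the wild-type libraries. P-values of the fits set a difference against the spread between these animals, and those of correlations come from permutations within genotype.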

Additional observations from a re-analysis of the deposited data

Results flagged for a closer look

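In 22 of 288 groups of libraries (one gene in one tissue and genotype, 7.64%), the highest or lowest library stood far from the rest of its group by Dixon's test, where chance sets apart about 1 in 20 groups. Of these, 5 of the 6 hippocampal cases in Mrpl40 heterozygous mice came from replicate 5, which had the highest values of Idh1 (55.7 CPM, next 41.9), Mdh1 (549, next 462), Pck2 (51.2, next 37.7), Got1 (364, next 304) and Elovl6 (67.8, next 56.9). In the same group replicate 6 had the highest Srebf1 (54.6 CPM, next 50.3). Hippocampal Slc25a1 heterozygous replicate 7 had the lowest Idh3a (151 CPM, next 168) and Got2 (131, next 149.5).

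Double heterozygous replicate 4 had the highest cortical Idh3g (137 CPM, next 127) and Mdh1 (692, next 633), and replicate 6 the highest cortical Me2 (15.0, next 13.6). In double heterozygous hippocampus, replicate 2 had the lowest Dlst (132 CPM, next 142) and the highest D2hgdh (15.5, next 13.9), and replicate 1 the lowest Idh3g (109.7, next 114.6). Cortical Slc25a1 heterozygous replicate 6 had the lowest Pcx (68.7 CPM, next 75.0) and Fasn (263, next 292), replicate 4 the highest Me3 (71.5, next 52.3) and replicate 7 the highest Acacb (6.55, next 4.84). In Mrpl40 heterozygous cortex, replicate 7 had the lowest Glud1 (228 CPM, next 246) and replicate 1 the lowest Elovl6 (45.1, next 55.9). In wild-type hippocampus, replicate 6 had the lowest Cs (253 CPM, next 265) and replicate 4 the lowest Mdh2 (224, next 237).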

How the results depend on the processing

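No gene's log2 difference given with its statistics and no marker relation past the threshold changed sign under the alternatives run for it; some weak marker relations did, such as Idh3b with oligodendrocyte markers in hippocampus (r from -0.11 to 0.27 without the 2 farthest libraries). The count of genes past the threshold in the tissue comparison was 19 of 36 in wild type and 30 of 36 over the genotypes. It was 20 and 30 with DESeq2, and 19 and 30 with DESeq2 size factors or no filter. Without the 6 animals against the Slc25a1 label it was 16 and 29. Over all genes, 12932 and 16550 of 21351 passed in the main fit. With DESeq2 12639 and 16319 of 21351 did, and with its size factors 12947 and 16567. With no filter 12804 and 18490 of 44147 did, and without those animals 11794 and 16021 of 21412. Among the 36 genes the count was 3 and 5 against a minimum fold of 1.2, an alternative that asks for more by its construction. Of all 21351 genes, 7064 and 8631 passed it. Without the libraries with markers of neighbouring tissue the counts were 20 and 30 of the 36 genes, and 12974 and 16441 of all 21477. That alternative gives no value for comparisons within cortex, which had no such library. Leaving out hippocampal wild-type replicate 8 or Mrpl40 heterozygous replicate 5, both chosen after seeing the data, gave 19 to 21 in wild type and 30 over the genotypes. Over all genes the counts were 12815 and 16559 of 21330 without the first library and 13075 and 16597 of 21499 without the second. Single calls lost were those of Idh2 with DESeq2 (adjusted p = 0.0523), Pck2 without wild-type replicate 8 (adjusted p = 0.056) and, over the genotypes, Elovl6 without the animals against the label (-0.07, adjusted p = 0.0788). Relations with cell type markers past the threshold numbered 31, and 20 without the 2 farthest libraries, 18 of them among the 31.

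Replicate numbers name different animals across genotypes, so they share only a number. With the replicate block, 0 of 36 genes passed in each genotype comparison, as without it. For the tissue comparison, which is paired by animal, the fit with no replicate block gave 22 and 30 genes. Of all 21351 genes, 12897 and 16460 passed in that fit. The number of genes past the threshold was 0 in every genotype comparison and alternative run. With 7 to 9 animals a group, a difference of any size inside a gene's 95% interval remains possible for that gene. The width of the interval differed between genes. The outermost bounds over the 36 genes between genotypes within a tissue, in double heterozygous against Slc25a1 heterozygous hippocampus, were -0.49 and 0.50.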
